A study of Homo sapiens with 6 samples.

Results

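The genes described here encode the E2 ubiquitin-conjugating enzymes that carry a UBE2 symbol. They were chosen by name: every platform annotation symbol made of UBE2 and a further letter, on probe sets that list exactly 1 gene symbol. This gave 32 genes on 81 probe sets, of 19775 genes with such a probe set on the array. By RefSeq biotype 26 of the 32 are protein-coding, and the other 6 are pseudogenes (UBE2NL, UBE2DNL, UBE2Q2P13, UBE2Q2P16) or non-coding RNA genes (UBE2D3-AS1, UBE2E2-DT). All 6 arrays hold total RNA of MDA-MB-231, an estrogen receptor-negative human breast cancer cell line. In 3 of them the cells were transfected with a control siRNA and in 3 with an siRNA against LSD1, the histone demethylase encoded by KDM1A. Cells went through 2 transfection rounds and were collected on day 6, and the series text calls the arrays of a group biological replicates. The question is how depleting LSD1 alters transcript levels. The labels name 1 control siRNA and 1 LSD1 siRNA treatment.

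Ubiquitin reaches a protein in a relay. An E1 enzyme activates it, an E2 enzyme carries it as a thioester on its catalytic cysteine, and an E3 ligase brings the loaded E2 to the substrate. The E2 often sets which lysine of ubiquitin is used to extend a chain, and so whether the substrate goes to the proteasome or into a signalling complex. Some E2 enzymes carry ubiquitin-like proteins such as SUMO, NEDD8 or ISG15 instead. In dividing tumour cells the E2 enzymes of the anaphase-promoting complex, which destroys cyclins and securin at mitotic exit, are known for high expression.

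KDM1A, the targeted gene, had signals of 2540, 2493 and 2295 on the control arrays and 291, 184 and 228 on the LSD1 siRNA arrays, 9.58% of the control mean. Signals are linear intensity values, and the trimmed mean of each of the 6 arrays is 500.1. The ACTB 3′ to 5′ signal ratio was 1.74 on control array 1 and 1.33 to 1.43 on the other 5. Of 5 markers that MDA-MB-231 should express (VIM, CD44, EGFR, MSN, CAV1), all had mean signals of 3959 or more in either group. Of 4 that it should lack (ESR1, PGR, CDH1, ERBB3), none had a mean above 169. Of 5 leukocyte markers 4 have a probe set here, and their summed signal was 183 to 213 on the control arrays and 164 to 223 on the LSD1 siRNA arrays. The 3 endothelial markers summed to 179 to 217 and 169 to 174. The 3 fibroblast markers summed to 47.0 to 64.3 and 118 to 161. Within them DCN averaged 39.7 on the control arrays and 25.7 on the LSD1 siRNA arrays, and PDGFRA averaged 15.4 and 12.9. Only LUM, a matrix proteoglycan gene, was higher, with 1.90 ± 2.32 (SD, n = 3) on the control arrays and 95.2 ± 7.83 (SD, n = 3) on the others. The part of this difference in the results below was not tested.

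Of the 32 genes, 27 passed the filter on low signals and were tested. With LSD1 siRNA 8 were higher and 7 were lower in limma at an adjusted p under 0.05. This is 15 of 27, beside 41.0% of all 13822 genes tested; 19.8% of all genes were higher and 21.3% lower. Among the 24 tested protein-coding genes 7 were higher and 6 lower. The median log2 change of the 27 was 0.05, and that of all genes tested was -0.02. For 16 of the 27 the 2 groups had no overlap, beside 50.4% of all genes. In 11 of them LSD1 siRNA was higher and in 5 lower, beside 24.2% and 26.2% of all genes. UBE2C, UBE2S and UBE2T fell most among the protein-coding members, and UBE2L6, UBE2H and UBE2K rose most. Only UBE2Q2P16, a pseudogene, changed by 2-fold or more, where 640 of all genes did. An exact two-sided permutation test of 3 against 3 arrays cannot go below p = 0.1, which it gave for each gene whose groups do not overlap. With control array 2 or LSD1 siRNA array 1 left out 5 genes were higher, and with control array 2, control array 3, LSD1 siRNA array 2 or LSD1 siRNA array 3 left out 4 were lower.

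**Figure D1:**
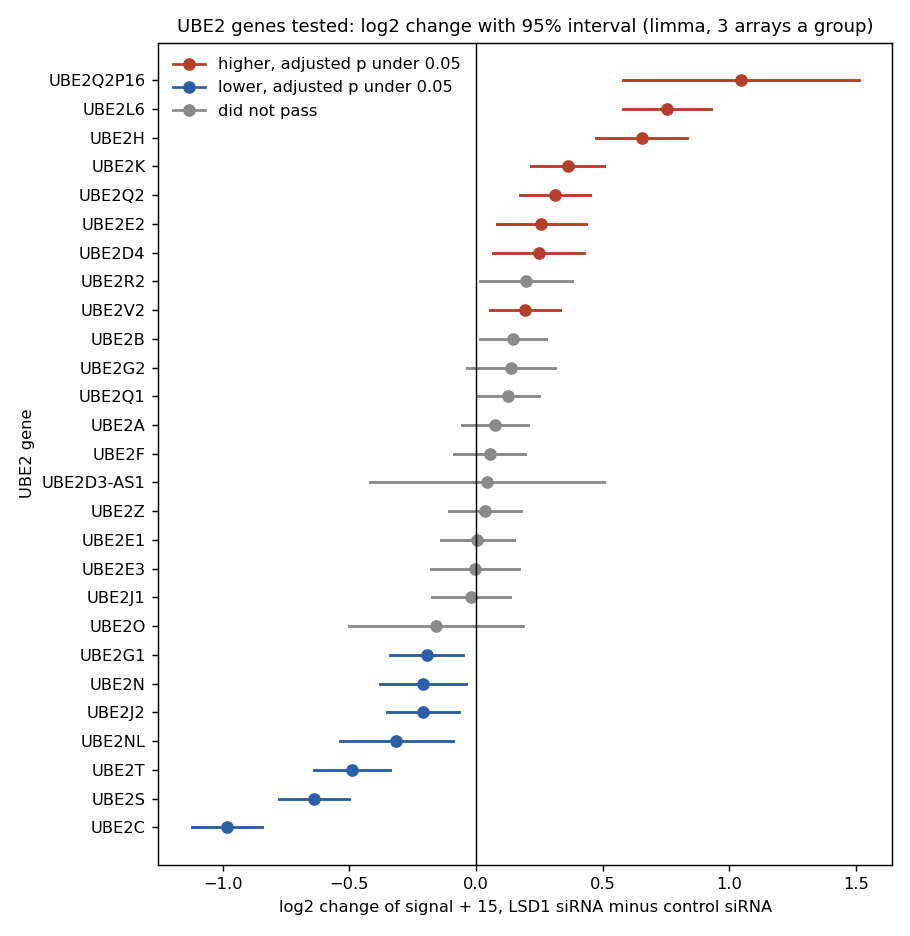
Log2 change of signal + 15 (LSD1 siRNA minus control siRNA, horizontal axis) of the 27 UBE2 genes tested, one gene a row, with limma's 95% interval as a line; red genes were higher and blue genes lower at an adjusted p under 0.05, grey genes did not pass. UBE2C at -0.98 and UBE2Q2P16 at 1.05 are the ends of the range.

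The E2 enzymes of the anaphase-promoting complex fell. UBE2C puts the first ubiquitins on mitotic substrates of this complex. Its signal was 11048, 11468 and 10182 on the control arrays and 5711, 5353 and 5436 on the LSD1 siRNA arrays. Every LSD1 siRNA array was near 5500, far below the lowest control array. The mean fell to 50.5% of control, a log2 change of -0.98 (standard error 0.06, limma adjusted p = 4.52e-07). UBE2S, which extends these chains through lysine 11 of ubiquitin, had signals of 15684, 15637 and 14226 with control siRNA and 9922, 9861 and 9404 with LSD1 siRNA. The groups do not overlap here either, and the mean fell to 64.1% of control (log2 change -0.64, standard error 0.06, limma adjusted p = 9.38e-06). UBE2C and UBE2S have 1 probe set each, and UBE2C kept its call under all 18 alternatives and UBE2S under the 17 in which it was tested.

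Some genes of the ligase these enzymes serve, and of its regulators, fell with them. Of 18 tested genes of the anaphase-promoting complex and its regulators, 11 fell and 2 rose, beside 21.3% and 19.8% of all genes, with a median log2 change of -0.30. The activator gene CDC20 dropped from 11084 ± 1199 to 5089 ± 222 (SD, n = 3), which is a log2 change of -1.12. BUB1B (-0.82) and MAD2L1 (-0.51), which restrain the complex in the spindle checkpoint, fell as well. Among the core subunits ANAPC7 changed by -0.48, while CDC26 (0.46) and ANAPC13 (0.23) rose. ANAPC7 was at -0.12 (adjusted p = 0.162) for the mean over its sets and at 0.23 (adjusted p = 0.131) when only probe sets without the s or x suffix were used. With that restriction 4 members of the list fell. The cycling markers MKI67 and TOP2A both fell, and their summed signal was 11333 to 12249 on the control arrays and 6977 to 7353 on the LSD1 siRNA arrays. Their part in the fall of UBE2C and UBE2S was not tested, and fewer cycling cells and less RNA per cell cannot be told apart in bulk RNA.

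UBE2T, which works with the ligase FANCL to ubiquitylate FANCD2 and FANCI in cross-link repair, fell too. Its signals were 4202, 4516 and 3995 with control siRNA and 3115, 2821 and 3105 with LSD1 siRNA. No LSD1 siRNA array reached the lowest control array, and the mean fell to 71.1% of control (log2 change -0.49, standard error 0.07, limma adjusted p = 1.27e-04). UBE2A and UBE2B, closely related E2 enzymes that act with RAD18 on PCNA and with RNF20 and RNF40 on histone H2B, did not pass. UBE2A had a log2 change of 0.07 (95% interval -0.06 to 0.20). The second probe set of UBE2A, with signals of 2710, 3032 and 2926 against 3270, 3376 and 3377, had a log2 change of 0.21 and passed when every probe set was tested (limma adjusted p = 0.0251). UBE2B had a log2 change of 0.15 (95% interval 0.02 to 0.28, limma adjusted p = 0.0681), and its LSD1 siRNA arrays (4533, 4381 and 4841) all lay above its control arrays (4182, 4064 and 4157).

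Of the 20 tested genes listed with them for DNA damage ubiquitylation, 17 fell and none rose, beside 21.3% of all genes lower, and the median log2 change was -0.46. FANCG, of the Fanconi anaemia core complex, dropped from 2252 ± 115 to 1125 ± 47.4 (SD, n = 3), which is a log2 change of -0.99. BRCA1 (-1.12) and BARD1 (-0.97), which form a ubiquitin ligase, fell, as did USP1 (-0.71), which removes ubiquitin from FANCD2 and PCNA. RAD18 changed by -0.67. FANCL, the ligase partner of UBE2T, had a value of 0.06 (adjusted p = 0.702), and RNF20, a partner of UBE2A and UBE2B, and FANCF did not pass either, at -0.14 and 0.09. With only probe sets without the s or x suffix 11 of the list fell. The fall of MKI67 (-0.93) and TOP2A (-0.68) stands beside this list too, and its part was not tested.

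The stretches upstream of UBE2S, UBE2T and UBE2L6 are shown because these genes have a single probe set, changed the most among members with an entry in the promoter table, and moved in opposite directions. UBE2C has no entry there. Each is the 250 bases before the RefSeq start site in build GRCh38.p14, written 5′ to 3′ on the minus strand, which is the strand of all 3 genes: UBE2S at chr19:55407789-55408038, UBE2T at chr1:202341937-202342186 and UBE2L6 at chr11:57567936-57568185. Capitals mark matches on either strand to CCAAT (the CCAAT box), TTTGAA (the CHR element of many cell cycle promoters), TTTNNCGC (an E2F-type site) and the interferon-stimulated response element, ISRE. No match shown overlaps another.
UBE2S: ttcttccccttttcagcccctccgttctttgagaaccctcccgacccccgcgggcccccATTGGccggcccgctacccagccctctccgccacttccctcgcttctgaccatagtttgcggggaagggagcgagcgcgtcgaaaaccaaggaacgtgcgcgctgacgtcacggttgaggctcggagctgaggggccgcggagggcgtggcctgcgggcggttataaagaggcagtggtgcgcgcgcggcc
UBE2T: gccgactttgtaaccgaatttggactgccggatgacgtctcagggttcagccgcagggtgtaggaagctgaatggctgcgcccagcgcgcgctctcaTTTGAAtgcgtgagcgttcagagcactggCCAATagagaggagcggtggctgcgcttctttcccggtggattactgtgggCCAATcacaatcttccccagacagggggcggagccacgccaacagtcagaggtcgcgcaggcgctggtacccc
UBE2L6: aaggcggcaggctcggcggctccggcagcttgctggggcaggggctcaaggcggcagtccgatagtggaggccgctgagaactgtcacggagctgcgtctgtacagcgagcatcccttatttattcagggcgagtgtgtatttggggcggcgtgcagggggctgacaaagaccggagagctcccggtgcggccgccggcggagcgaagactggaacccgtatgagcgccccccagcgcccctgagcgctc

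UBE2T holds a CCAAT match starting 124 bases and another starting 73 bases before the start site, and a TTTGAA match starting 153 bases before it. UBE2S holds 1 CCAAT match, on the other strand, starting 191 bases before its start site. UBE2L6 has 2 entries, of which 1 is printed, and neither holds a match to any of the 4. Of 35116 promoter entries of this length, 32.0% hold CCAAT, 13.3% TTTGAA, 5.92% TTTNNCGC and 3.02% the ISRE. Of the 32 UBE2 genes 23 have an entry. CCAAT was found for 2 of the 5 lower genes with an entry, 0 of the 5 higher ones and 4 of the 10 that did not pass. TTTGAA was found for 1, 0 and 1 of them. These are letter matches in a window and describe no binding.

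Among the E2 enzymes of ubiquitin-like modifiers, UBE2L6 rose. UBE2L6 conjugates ISG15, an interferon-induced modifier. Its signals were 755, 767 and 700 with control siRNA and 1353, 1184 and 1245 with LSD1 siRNA. All LSD1 siRNA arrays lay well above all control arrays, and the mean rose to 170% of control (log2 change 0.75, standard error 0.08, limma adjusted p = 1.65e-05). It has 1 probe set and kept its call under all 18 alternatives.

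Of the 6 other tested genes of ISG15 conjugation, 1 rose and 2 fell, with a median log2 change of 0.13. These are 16.7% and 33.3%, beside 19.8% and 21.3% of all genes, and shares of 6 genes are coarse. ISG15 itself had a value of 0.07 (adjusted p = 0.515), with means of 10642 ± 1113 and 11122 ± 235 (SD, n = 3). The ligase genes HERC5 (-0.43) and TRIM25 (-0.38) fell, although TRIM25 averaged over its sets was at -0.23 (adjusted p = 0.133). UBA7, the E1 enzyme of this pathway, was not analysed here. HERC6, the only one that rose, was at 0.21 (limma adjusted p = 0.0444), and with any of 5 arrays left out its adjusted p lay between 0.0846 and 0.116. With the mean of its probe sets HERC6 was at -0.15 (adjusted p = 0.438).

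UBE2F, which loads NEDD8 for CUL5 with the ligase RNF7, had signals of 2072, 2124 and 2252 with control siRNA and 2311, 2236 and 2145 with LSD1 siRNA. The groups overlap, and the log2 change was 0.05 (95% interval -0.09 to 0.19). UBE2Z, which takes ubiquitin or FAT10 from the E1 enzyme UBA6, had a log2 change of 0.04 (95% interval -0.10 to 0.18). Of 21 tested genes of NEDD8 and the cullin ligases, 6 rose and 5 fell, with a median of 0.02. This is 28.6% higher and 23.8% lower, beside 19.8% and 21.3% of all genes. CUL7 rose by 0.91, RNF7 by 0.53 and CUL4A by 0.51, and SKP2, a substrate receptor that targets the CDK inhibitor p27, changed by -0.89. With only probe sets without the s or x suffix CUL4A was at -0.03 (adjusted p = 0.822), RNF7 at 0.09 (adjusted p = 0.728), and 1 member of the list fell. Of 12 tested SUMO conjugation genes, 5 fell and none rose, with a median of -0.18. This is 41.7% lower and none higher, beside 21.3% and 19.8% of all genes. In either direction 41.0% of all genes were called. Those that fell include SENP3 (-0.53), RANGAP1 (-0.36), SUMO3 (-0.27) and PIAS4 (-0.45).

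Of the 4 analysed UBE2 enzymes that build lysine 48-linked chains for the proteasome, 2 rose, 1 fell and 1 did not pass. UBE2H, the E2 of the CTLH ligase, had signals of 1396, 1643 and 1439 with control siRNA and 2223, 2275 and 2575 with LSD1 siRNA. The lowest LSD1 siRNA array lay above the highest control array, and the mean rose to 158% of control (log2 change 0.65, standard error 0.08, limma adjusted p = 5.86e-05). Of its 7 tested probe sets 3 were higher, at 0.65, 0.67 and 0.79, and none was lower. UBE2K, which makes lysine 48 chains without the help of a ligase, had signals of 4853, 4705 and 4340 with control siRNA and 5587, 6200 and 6084 with LSD1 siRNA. The groups do not overlap, and the log2 change was 0.36 (standard error 0.07, limma adjusted p = 9.17e-04). A second probe set of UBE2K was also higher at 0.36, while the remaining one had signals of 2835, 3208 and 3413 against 2834, 2907 and 2617 and a log2 change of -0.17 that did not pass (adjusted p = 0.110 over probe sets). With the mean of all 3 sets UBE2K was at 0.18 and still passed (adjusted p = 0.0283).

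UBE2G1, which extends chains that other E2 enzymes have begun on cullin substrates, went the other way by a smaller amount. Its signals were 4027, 4176 and 4513 with control siRNA and 3897, 3662 and 3540 with LSD1 siRNA. The arrays just fail to overlap, and the log2 change was -0.19 (standard error 0.07, limma adjusted p = 0.0321). The adjusted p was 0.0611 with control array 2 left out, 0.0812 with control array 3 left out, 0.0948 with LSD1 siRNA array 2 left out and 0.127 with LSD1 siRNA array 3 left out. Its other 2 probe sets, at 0.07 and -0.07, did not pass. The mean of all 3 was at -0.06 (adjusted p = 0.452), and the call was also lost after median centring, without the intensity trend and in the unmoderated test.

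UBE2R2, a cullin E2, had signals of 1944, 1931 and 1668 with control siRNA and 2310, 1947 and 2113 with LSD1 siRNA. Its log2 change of 0.20 (95% interval 0.02 to 0.38) did not pass (limma adjusted p = 0.0766), although the groups do not overlap; with LSD1 siRNA array 2 left out it was 0.26 with an adjusted p of 0.0452. CDC34, its close relative outside the UBE2 symbols, changed by -0.26 (limma adjusted p = 0.0114), with -0.16 (adjusted p = 0.344) for the mean of its probe sets and an adjusted p of 0.0510 without the intensity trend and 0.0609 in the unmoderated test. Of the 8 tested E2 enzymes and E2 variants without a UBE2 symbol, 3 rose and 1, CDC34, fell, which is 37.5% and 12.5% beside 19.8% and 21.3% of all genes. UEVLD, an inactive E2 variant gene, rose by 0.57, ATG10, the E2 of the ATG12 autophagy system, by 0.47, and UFC1, which carries UFM1, by 0.21. Averaged over its sets ATG10 was at 0.09 (adjusted p = 0.769), and UFC1 had an adjusted p of 0.0739 with control array 2 left out, 0.0545 with LSD1 siRNA array 1 left out and 0.0612 with LSD1 siRNA array 2 left out.

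**Figure D2:**
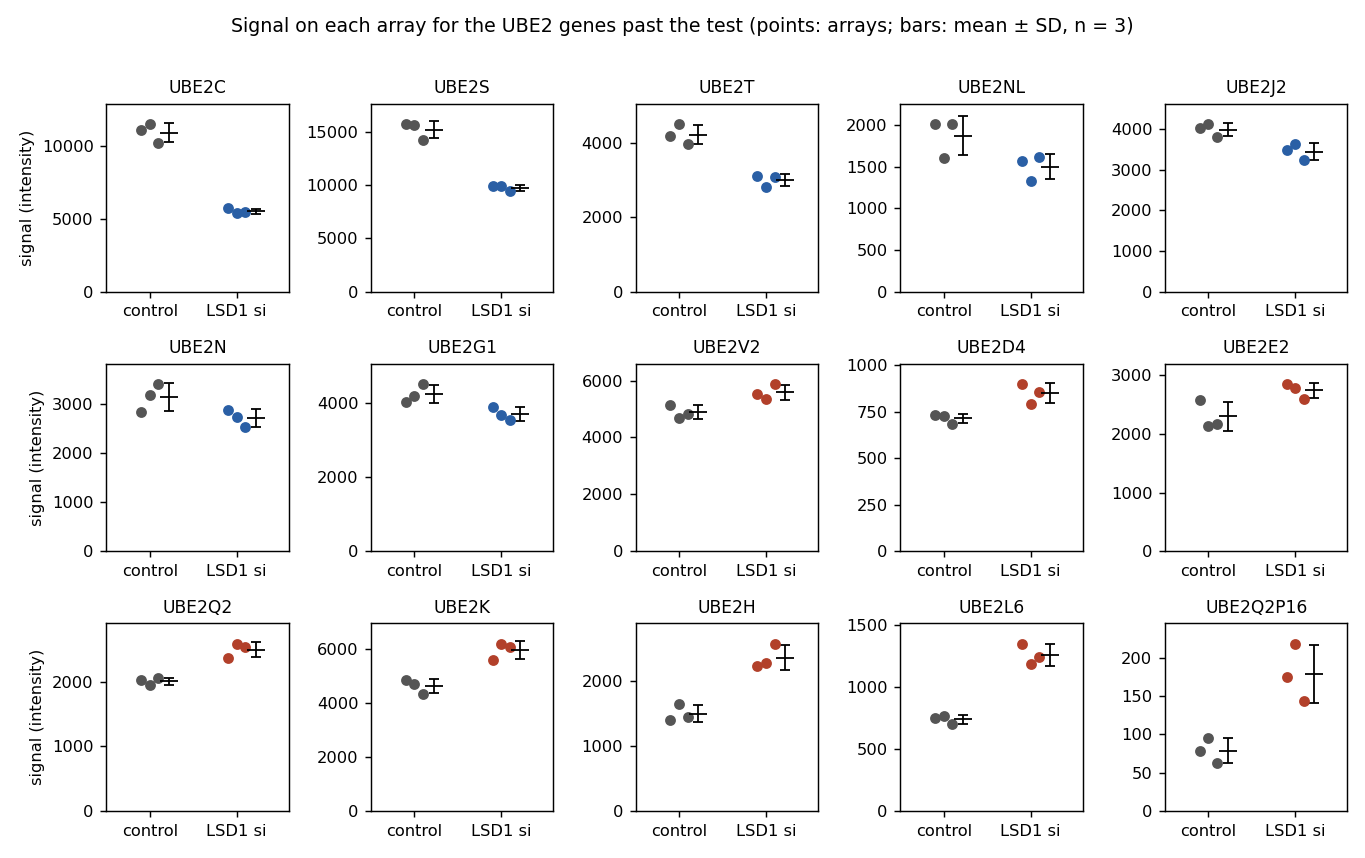
Signal (intensity, vertical axes from 0) on each array of the 15 UBE2 genes past the test, one gene a panel; points are the 3 control siRNA and 3 LSD1 siRNA arrays, and the bar beside them is the mean ± SD. UBE2C, UBE2S, UBE2H and UBE2L6 show wide gaps between the groups, while the groups of UBE2N and UBE2NL overlap.

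The E2 enzymes of endoplasmic reticulum-associated degradation did not move together. UBE2J2, anchored in the membrane of the endoplasmic reticulum, had signals of 4030, 4113 and 3800 with control siRNA and 3469, 3637 and 3223 with LSD1 siRNA. The groups do not overlap, and the log2 change was -0.21 (standard error 0.06, limma adjusted p = 0.0220). The adjusted p was 0.0571 with control array 1 left out, 0.0778 with control array 2 left out and 0.108 with LSD1 siRNA array 3 left out, and the call was also lost without the intensity trend and in the unmoderated test. The other 2 tested probe sets of UBE2J2 were at 0.12 and 0.13 and did not pass, and the mean of all its sets was 0.07 (adjusted p = 0.642).

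UBE2J1, its relative in the same membrane, had signals of 1323, 1375 and 1386 with control siRNA and 1420, 1266 and 1346 with LSD1 siRNA on the set used for it. The groups overlap, with a log2 change of -0.02 (95% interval -0.17 to 0.13). Of its 6 probe sets 2 were higher when every set was tested. One of them had signals of 371, 410 and 445 against 518, 626 and 623, a log2 change of 0.51 (limma adjusted p = 0.0035), and the other 701, 694 and 713 against 811, 862 and 818, a log2 change of 0.24 (limma adjusted p = 0.0350). UBE2G2, another E2 enzyme of this degradation route, had a log2 change of 0.14 (95% interval -0.04 to 0.31). A dim probe set of UBE2G2 had signals of 86.8, 110 and 87.1 against 62.1, 23.4 and 46.3 and was lower by 0.95 on the log2 scale (limma adjusted p = 0.0235), while the other 3 sets lay between 0.14 and 0.37 and did not pass.

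Of the 13 other tested genes of endoplasmic reticulum-associated degradation, 9 rose and none fell, beside 19.8% of all genes higher, and the median log2 change was 0.25. UBXN4 rose from 2721 ± 100.2 to 3686 ± 269 (SD, n = 3), which is a log2 change of 0.43. DERL2 rose by 0.34 and DERL1 by 0.25, both of the retrotranslocation channel, and FAF2, which recruits the VCP segregase, by 0.41. With the mean of all probe sets 4 members rose, and DERL2 (adjusted p = 0.0784) and DERL1 (adjusted p = 0.0817) were not among them.

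Of the lysine 63 enzymes UBE2N was called lower and UBE2V2 higher, but these calls held in only 5 and 12 of 18 alternatives. UBE2N makes lysine 63-linked chains, the kind used in NF-kappaB signalling and DNA damage tolerance, and needs an inactive partner such as UBE2V2. UBE2N had signals of 2852, 3182 and 3416 with control siRNA and 2888, 2732 and 2537 with LSD1 siRNA. The groups overlap, and the log2 change of -0.21 barely passed (standard error 0.08, limma adjusted p = 0.0492). It did not pass in 13 of 18 alternatives, among them those with control array 2 left out (0.116), control array 3 (0.142), LSD1 siRNA array 2 (0.101) or LSD1 siRNA array 3 (0.185). With the replicate number as a block it had an adjusted p of 0.0642. Its 2 sets with the x suffix, which can take signal from similar transcripts, were both lower when every set was tested, at -0.32 and -0.27 (limma adjusted p = 0.0053 and 0.00775).

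UBE2NL, a UBE2N-like pseudogene, has 1 probe set, also with the x suffix, and its signal cannot be told apart from that of UBE2N. It had signals of 2008, 1603 and 2006 with control siRNA and 1568, 1323 and 1609 with LSD1 siRNA. The groups overlap, and the log2 change was -0.31 (standard error 0.10, limma adjusted p = 0.0265). The adjusted p was 0.101 with control array 1 left out, 0.0815 with control array 3 left out and 0.116 with LSD1 siRNA array 2 left out. Neither UBE2NL (0.109) nor UBE2V2 (0.0938) passed without the intensity trend. UBE2V2 had signals of 5155, 4685 and 4817 with control siRNA and 5512, 5362 and 5883 with LSD1 siRNA. The groups do not overlap, and the log2 change was 0.19 (standard error 0.06, limma adjusted p = 0.0284). The adjusted p was 0.104 with control array 2 left out, 0.0566 with LSD1 siRNA array 1 left out and 0.129 with LSD1 siRNA array 3 left out, and the mean of its 3 sets was 0.09 (adjusted p = 0.328). At 0.17 and -0.08, the other tested probe sets of UBE2V2 did not pass. A further 4 probe sets list UBE2V1 together with PEDS1 and, in 3 of them, UBE2V2, and they represent no gene here. One of these had signals of 6603, 6556 and 7088 with control siRNA and 5377, 5092 and 5023 with LSD1 siRNA, a log2 change of -0.38 (limma adjusted p = 5.04e-04), and the other 3 lay between -0.06 and 0.06 and did not pass.

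Of 12 tested genes of lysine 63 signalling, 4 rose and 1 fell, with a median of 0.10. The share called, 41.7%, is near the 41.0% of all genes. The deubiquitinases CYLD (1.26) and TNFAIP3 (0.60), which cut back these chains, rose. TAB3 (0.59), which reads them for the kinase MAP3K7, rose as well, and XIAP, a ligase and caspase inhibitor, was at 0.43. MAP3K7 itself changed by -0.27. Averaged over its sets TAB3 had an adjusted p of 0.0975, and XIAP had 0.0678 without the intensity trend and 0.132 in the unmoderated test.

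UBE2D1, UBE2D2 and UBE2D3 are not among the genes analysed here. Of the 4 analysed E2 enzymes that begin chains with many ligases, UBE2E1 and UBE2E3 did not pass. UBE2E2 and UBE2D4 were called higher, but UBE2E2 kept its call in 12 of 18 alternatives and the probe sets of UBE2D4 disagree in direction. UBE2E2 had signals of 2580, 2130 and 2173 with control siRNA and 2848, 2777 and 2591 with LSD1 siRNA. The highest control array lies just under the lowest LSD1 siRNA array, and the log2 change was 0.26 (standard error 0.08, limma adjusted p = 0.0218). Its adjusted p was 0.0891 with control array 2 left out, 0.0588 with control array 3 left out, 0.0769 with LSD1 siRNA array 1 left out and 0.0665 with LSD1 siRNA array 2 left out. It was also lost without the intensity trend (0.0907) and in the unmoderated test (0.127). Its close relatives UBE2E1 and UBE2E3 were at 0.01 (95% interval -0.14 to 0.15) and -0.01 (95% interval -0.18 to 0.17). UBE2E1 was at 0.41 (adjusted p = 0.0376) when averaged with its second probe set, whose signals lay between 4.68 and 41.7.

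UBE2D4 gave opposite answers on different probe sets. The set used for the gene had signals of 732, 724 and 683 with control siRNA and 899, 793 and 858 with LSD1 siRNA, a log2 change of 0.25 (limma adjusted p = 0.0299). Another set had signals of 648, 597 and 642 against 521, 494 and 542, a log2 change of -0.27 (limma adjusted p = 0.0344 over all probe sets). In both the groups do not overlap, once with LSD1 siRNA above and once below. The other 3 sets were at -0.29, -0.0014 and 0.12 and did not pass, and the mean of all 5 was -0.04 (adjusted p = 0.765). The first set alone had an adjusted p of 0.0544 with control array 2 left out, 0.0716 with control array 3 left out, 0.110 with LSD1 siRNA array 1 left out and 0.0823 with LSD1 siRNA array 3 left out. UBE2D4 therefore has no settled direction here.

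UBE2Q2, one of the larger E2 proteins, had signals of 2026, 1943 and 2053 with control siRNA and 2370, 2592 and 2533 with LSD1 siRNA. The groups do not overlap, and the log2 change was 0.31 (standard error 0.06, limma adjusted p = 0.00175), a call it kept under all 18 alternatives. UBE2Q2P16, a transcribed pseudogene related to it, had dim signals of 77.8, 95.5 and 62.4 with control siRNA and 175, 218 and 143 with LSD1 siRNA. The mean rose to 227% of control (log2 change 1.05, standard error 0.21, limma adjusted p = 0.00187). Its probe set carries the x suffix and UBE2Q2 pseudogenes come in near-identical copies, so the transcript behind this signal is uncertain. UBE2Q1 had a log2 change of 0.13 (95% interval 0.0065 to 0.25, limma adjusted p = 0.0873), with LSD1 siRNA arrays of 3888, 3790 and 3925 all above control arrays of 3563, 3548 and 3512. UBE2O, which joins E2 and E3 functions in 1 protein, was at -0.16 (95% interval -0.50 to 0.19).

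The 12 members that did not pass differ in how much they leave room for. For 9 of them the 95% interval of the probe set used for the gene lies within 0.32 of 0 on the log2 scale. The exceptions are UBE2R2, UBE2O and UBE2D3-AS1, a non-coding RNA gene with signals between 81.1 and 114 and a value of 0.04. Among the 9, other probe sets of UBE2J1 (0.51 and 0.24), UBE2G2 (-0.95) and UBE2A (0.21) were called when every set was tested. UBE2U and UBE2QL1, with UBE2DNL, UBE2Q2P13 and UBE2E2-DT, were below the filter, a signal of about 28.0. Their mean signals lay between 2.64 and 31.2 in either group.

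Of the 81 probe sets 68 were above the filter, and 14 were higher and 10 lower, beside 34.4% of all 27079 probe sets tested. Of the 16 genes with 2 or more tested sets only UBE2D4 had sets called in both directions.

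**Figure D3:**
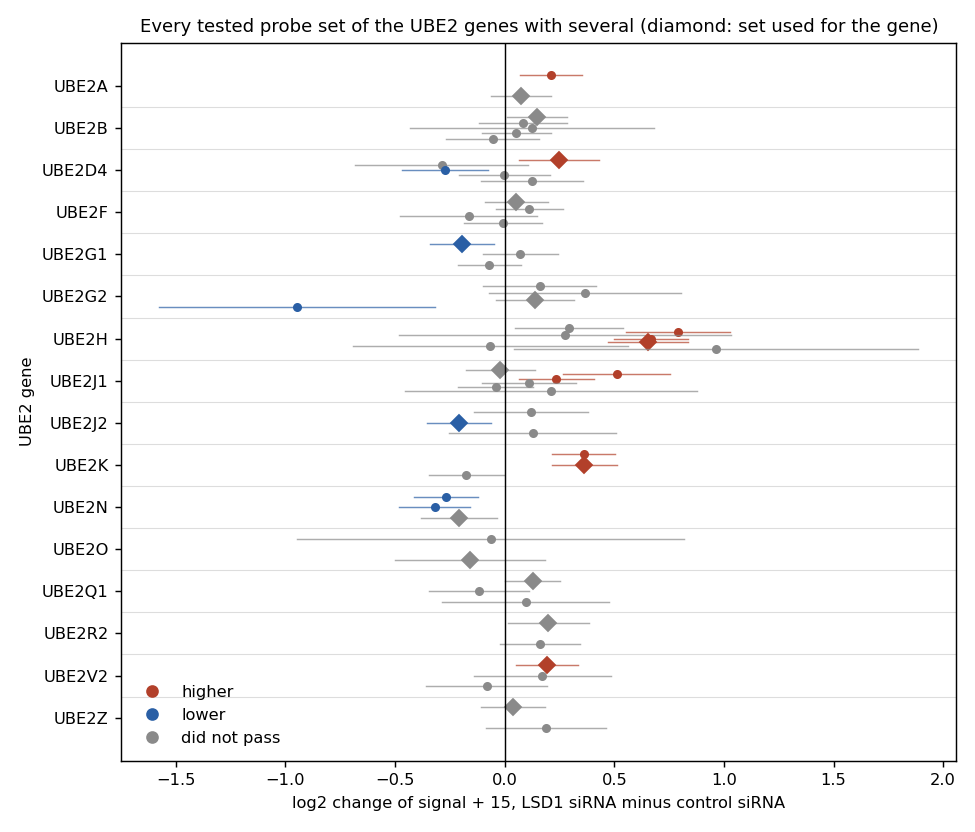
Log2 change of signal + 15 (horizontal axis) with its 95% interval for each tested probe set of the 16 UBE2 genes that have 2 or more; diamonds are the sets used for the gene, and colours give the call adjusted over all probe sets. The sets of UBE2H lie mostly to the right, those of UBE2N to the left, and those of UBE2D4 on both sides of 0.

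Of the 7 tested E1 genes, whose products load the E2 enzymes, 2 rose and 2 fell, with a median log2 change of 0.10. This is 28.6% each way, beside 19.8% higher and 21.3% lower of all genes, and shares of 7 genes are coarse. SAE1, a subunit of the SUMO E1, dropped from 7278 ± 233 to 4418 ± 131 (SD, n = 3), which is a log2 change of -0.72 (limma adjusted p = 2.08e-06), and NAE1, a subunit of the NEDD8 E1, changed by -0.34. SAE1 was at -0.03 (adjusted p = 0.954) on its probe set without the s or x suffix. UBA3, the other NEDD8 E1 subunit, was at 0.25 and UBA6 at 0.27; UBA3 had an adjusted p between 0.0654 and 0.135 with any of 4 arrays left out, and UBA6 between 0.0590 and 0.0713 with any of 3 left out. Neither passed without the intensity trend (0.131 and 0.0814). UBA1, the main ubiquitin E1, had a value of 0.10 (adjusted p = 0.196). Of the ubiquitin precursor genes only UBB was tested, with a value of -0.17 (adjusted p = 0.222).

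**Figure D4:**
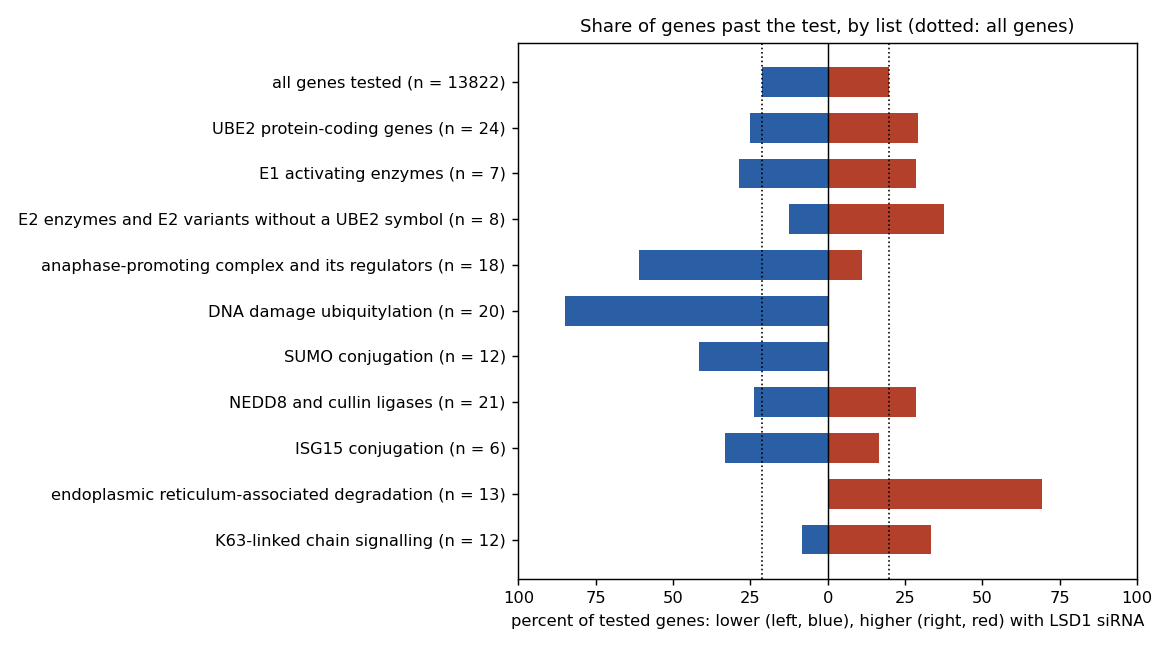
Percent of tested genes that were lower (to the left) and higher (to the right) with LSD1 siRNA at an adjusted p under 0.05, for all 13822 genes, the 24 protein-coding UBE2 genes and the lists with 5 or more tested genes; dotted lines mark the shares over all genes. DNA damage ubiquitylation (17 of 20 lower) and endoplasmic reticulum-associated degradation (9 of 13 higher) lie on opposite sides. The lists were chosen with earlier results of these data known.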

How the data were processed

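Per the submitters' processing notes, the tools were GCOS, Affymetrix Expression Console 1.1 and MAS5. The authors deposited 54675 linear intensity values for each of 6 arrays. Their common trimmed mean hides any change in total RNA per cell. Scan dates and detection calls were not used here, and the number of arrays limits the precision. In the platform annotation 41097 probe sets have 1 symbol, 1801 several and 11777 none listed. Of 41091 single-symbol sets used, after control sets were set aside, 41037 matched RefSeq by gene identifier, and 0 symbols changed. A gene was represented by its brightest set, with x-suffix sets used only where it had no other. Signals plus 15 (their 25th percentile) were put on the log2 scale, which understates folds of dim genes. Genes above the 40th percentile of probe set means were tested with limma 3.58.1 (R 4.3.3) with an intensity trend, two-sided, with Benjamini-Hochberg adjustment over all genes and a threshold of 0.05. The median standard error was 0.11. The code was tested on simulated data. Every UBE2 gene is named; per-array values are given for those past the test and for others chosen after their values were seen. Up to 4 members of each partner list past the test are named, beside CDC20, FANCL, RAD18, CDC34, ISG15 and UBA1; CDC26, ANAPC13, MAP3K7, RNF20 and FANCF were named after their values were seen. Members and lists were chosen with earlier results of these data known. Alternatives changed the constant, filter, normalization, test, replicate block, probe set rule and arrays. Promoters are RefSeq sequences of GRCh38.p14. Deviations of same-numbered replicates correlated between -0.01 and 0.02. Figures were drawn with matplotlib 3.10.9.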

Additional observations from a re-analysis of the deposited data

Results flagged for a closer look

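UBE2E2-DT, a non-coding RNA gene divergent from UBE2E2, was below the filter and entered no test. Its signals were 3.49, 1.63 and 2.81 with control siRNA, a mean of 2.64, and 9.38, 14.4 and 28.3 with LSD1 siRNA, a mean of 17.4. It is listed because every LSD1 siRNA array was above every control array in data outside the main comparison; signals of this size are near or below the constant of 15 added to all values.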

How the results depend on the processing

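Of the 15 UBE2 calls 8 held under every setting in which they were tested: UBE2C, UBE2S, UBE2T, UBE2H, UBE2K, UBE2L6, UBE2Q2 and UBE2Q2P16. No cause of a change was tested. Same-numbered replicates did not pair; with the replicate number as a block 14 of the 15 UBE2 calls were kept (all but UBE2N), and 1 gene of endoplasmic reticulum-associated degradation was lower where none was before. The number of lower UBE2 genes was 3 without the intensity trend, 3 in the unmoderated test and 4 with only sets lacking the s or x suffix, where 20 of them could be tested. With 1 array left out in turn, 5 to 8 UBE2 genes were higher and 4 to 7 lower. Over the same settings higher genes numbered 0 to 2 for the E1 enzymes, 1 to 2 for the anaphase-promoting complex and 0 to 2 for ISG15 conjugation, and lower genes numbered 0 to 1 for ubiquitin precursors and 1 to 2 for lysine 63 signalling.

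Among the E1 enzymes 1 was higher with no filter and 0 without the trend, unmoderated or with the mean of all sets, and 0 were lower with only sets lacking the suffix. Of the E2 enzymes without a UBE2 symbol 0 were lower without the trend, unmoderated or with the mean of sets. Of the anaphase-promoting complex 1 was higher without the trend, with the mean of sets or without suffixed sets, and 0 unmoderated. Of this list 4 of 14 tested genes were lower without suffixed sets. Without suffixed sets 11 of 16 DNA damage genes, 1 of 17 NEDD8 and cullin genes and 0 of 8 lysine 63 genes were lower. In the unmoderated test 3 NEDD8 and cullin genes were higher. For ISG15 conjugation 0 were higher with no filter, without the trend, with the mean of sets, with every set tested or without suffixed sets, 2 with the filter at the 60th percentile, with quantile normalization or unmoderated, and 1 was lower with the mean of sets. With the mean of sets 4 of 12 tested genes of endoplasmic reticulum-associated degradation were higher.

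With the mean of sets the log2 change turned to -0.038 for UBE2D4, -0.0012 for UBE2F, -0.070 for UBE2G2, 0.17 for UBE2J1, 0.073 for UBE2J2 and -0.15 for HERC6. Without suffixed sets it turned to -0.0014 for UBE2D4, -0.95 for UBE2G2, 0.51 for UBE2J1, 0.13 for UBE2J2, -0.12 for UBE2Q1, 0.23 for ANAPC7 and -0.031 for CUL4A; these 2 settings use other probe sets. After median centring UBE2E3 was at 0.0053. With 1 array left out in turn the sign turned for UBE2D3-AS1 (-0.048 to 0.17), UBE2E1 (-0.048 to 0.048), UBE2E3 (-0.060 to 0.084), UBE2J1 (-0.060 to 0.022), UBE2Z (-0.0063 to 0.078), FANCL (-0.056 to 0.14) and ISG15 (-0.014 to 0.14), none of which had passed. UBE2Q1 passed in the unmoderated test (adjusted p = 0.0110). Signals near the filter are close to background, so changes in UBE2Q2P16, UBE2D3-AS1 and the dim sets are the least precise.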
